A study of Drosophila melanogaster with 3 samples.

Results

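Intergenic binding of Deadpan was examined in whole fly embryos by chromatin immunoprecipitation with sequencing (ChIP-seq), as the peaks whose summit lay outside every annotated gene body and more than 500 bp from every annotated start site. Of the 5164 peaks on genome release 6 (dm6) kept by the irreproducible discovery rate (IDR) procedure, which retains peaks whose ranks recur between replicates, 592 (11.5%) met this rule. The fly line carried an eGFP exon, trapped in an intron of dpn by the MiMIC transposon system, so that Deadpan was made as a GFP fusion under the control of its own locus. Chromatin came from embryos of mixed sex aged 0 to 24 h, was sheared to 200 to 800 bp and was precipitated with an antibody against GFP, although the field for the antibody gives dpn itself. There was 1 group with 3 biological replicates from 1 fly line, and no untagged line, other stage or control library is among the samples analysed here. Since all tissues and stages were mixed, a weak peak may come from few cells or from low occupancy in many, and these cannot be told apart. The lists hold ranked regions without read counts, so depth and counting error per peak are unknown, and ranks stand in for levels.

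Deadpan is a basic helix-loop-helix (bHLH) repressor of the Hes family. It acts in neural stem cells (neuroblasts), where it keeps the stem cell state, and on the early embryo's count of X chromosomes. Hes proteins bind variants of the E-box and N-box and recruit the corepressor Groucho. Intergenic sequence far from start sites holds many of the fly's enhancers, short regions at which transcription factors act on a promoter at a distance, and also insulators and start sites that an annotation lacks. Which gene such a region acts on cannot be read from its position, so both flanking protein-coding genes are given.

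The sequences under 5 of the strongest summits are shown first because they hold words that the hexamer results name. They are the first 5 in rank outside an arm of chromosome 2 from which no sequence is printed. Each line gives the flanking protein-coding genes, the rank of the peak and the 101 bases centred on its summit, 5′ to 3′, from the RefSeq genome sequence of release 6. Capitals mark hexamers that were commoner at the intergenic summits than in their own flanks.
mtSSB/tara, rank 31 (chr3R:16222442-16222542, forward strand): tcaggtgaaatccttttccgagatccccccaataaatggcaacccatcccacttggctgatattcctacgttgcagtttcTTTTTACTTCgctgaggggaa
RFeSP/chinmo, rank 41 (chr2L:1638749-1638849, forward strand): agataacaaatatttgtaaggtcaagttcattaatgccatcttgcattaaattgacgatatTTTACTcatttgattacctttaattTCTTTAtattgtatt
C15/sp3, rank 66 (chr3R:21520330-21520430, forward strand): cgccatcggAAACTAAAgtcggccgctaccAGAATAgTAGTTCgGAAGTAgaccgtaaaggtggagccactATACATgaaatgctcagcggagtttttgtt
CG3149/AdamTS-B, rank 83 (chrX:5696485-5696585, forward strand): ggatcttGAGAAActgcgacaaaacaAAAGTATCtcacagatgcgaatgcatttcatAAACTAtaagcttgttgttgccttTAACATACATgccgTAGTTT
RFeSP/chinmo, rank 93 (chr2L:1632807-1632907, forward strand): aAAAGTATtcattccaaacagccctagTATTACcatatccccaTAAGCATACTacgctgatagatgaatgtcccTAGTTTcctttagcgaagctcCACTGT
The capitals are mostly A- and T-rich words such as AAAGTA and its neighbours, and the windows of ranks 31 and 41 hold few of them. The share of A or T in the 5 windows is 53.5%, 76.2%, 52.5%, 63.4% and 59.4% in the order shown, so single windows lie on both sides of the shares given below for summits and flanks.

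A second set shows a short sequence that recurred beside the summits. It is the hexamer ACACTG with AAA after 4 further bases, both in capitals, and each line gives the match nearest to the summit in 1 of the 12 strongest peaks of the chromosomes shown that hold it within 100 bp.
CG3149/AdamTS-B, rank 83 (chrX:5696580-5696599, reverse strand): atctACACTGgaaaAAActa
slp1/slp2, rank 229 (chr2L:3832576-3832595, reverse strand): cagtACACTGagaaAAAtat
noc/CG33648, rank 280 (chr2L:14502825-14502844, reverse strand): caaaACACTGagagAAAcga
CG9932/Ttc30, rank 388 (chr2L:13083889-13083908, reverse strand): tagtACACTGataaAAAtac
NijA/CG43245, rank 663 (chr3L:10752874-10752893, reverse strand): ccgtACACTGaacaAAAtat
Doc2/Doc1, rank 680 (chr3L:9025966-9025985, reverse strand): tggtACACTGagcgAAAatg
CG5194/Doc2, rank 738 (chr3L:9012009-9012028, reverse strand): tggcACACTGgaagAAAtgg
robo2/CG43401, rank 844 (chr2L:1423016-1423035, reverse strand): tggtACACTGagcaAAAcaa
hng3/CG13898, rank 916 (chr3L:784235-784254, forward strand): tgatACACTGcgggAAAaac
CG6168/CG6163, rank 1119 (chr3L:11325961-11325980, reverse strand): aataACACTGaaaaAAAtaa
Cyp6t1/GCS2alpha, rank 1137 (chrX:21594154-21594173, reverse strand): ttcaACACTGagaaAAAact
CG5895/Diap1, rank 1177 (chr3L:16037231-16037250, reverse strand): gctaACACTGagcaAAAtga
A T precedes the hexamer in 7 of these lines, and mostly A or G bases lie between the capitals. In 11 of the 12 lines the sequence was read from the reverse strand, at a place to the right of the summit. In the peak of rank 83, upstream of AdamTS-B, a metalloprotease gene, 2 copies face each other across the summit, 151 bp apart.
CG3149/AdamTS-B, rank 83 (chrX:5696429-5696605, forward strand): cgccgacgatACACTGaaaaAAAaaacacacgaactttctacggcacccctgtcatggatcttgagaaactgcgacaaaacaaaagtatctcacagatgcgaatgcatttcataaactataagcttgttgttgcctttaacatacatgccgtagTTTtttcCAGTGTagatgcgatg

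The intergenic peaks were of middling strength and recurred between replicates about as often as peaks in introns. Their ranks in the IDR-thresholded list ran from 19 to 5155 with a median of 2906, against medians of 2700.5 for the 1582 far intronic peaks (in an intron, with no start site within 500 bp) and 2424.5 for the 2864 promoter peaks. Among the 500 strongest peaks 40 were intergenic, 6.76% of the 592, as 6.70% of the far intronic and 11.9% of the promoter peaks did. In the replicates' own lists of 30000 entries the intergenic share was 7.93% ± 0.808 (SD, n = 3) for ranks 1 to 500. It was 11.5% ± 0.831 for ranks 501 to 5164, 12.7% ± 0.359 for ranks 5165 to 10000, 15.2% ± 0.876 for ranks 10001 to 20000 and 17.0% ± 1.03 for ranks 20001 to 30000. The intergenic share was lowest among the strongest entries in every replicate, and the mean far intronic share was lowest there too, at 21.1% against 31.4% to 37.8% in the other ranges.

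A matching entry, with its summit within 150 bp, was found among the 5164 top entries of replicates 1, 2 and 3 for 81.6%, 81.3% and 88.0% of the intergenic peaks. For 375 peaks (63.3%, exact 95% binomial interval 59.3 to 67.2) a match stood in all 3 replicates, for 146 in 2, for 68 in 1 and for 3 in none. The IDR-thresholded peaks came from these same replicates, so a high recovery was fixed in advance. The recovery differed from that of the far intronic peaks by -0.65, -2.76 and 1.47 percentage points in replicates 1, 2 and 3. The mean difference of -0.646 ± 2.11 percentage points (SD, n = 3) lay within the spread between replicates (exact sign-flip permutation test, two-sided, p = 0.75, where 0.25 is the smallest p that 3 replicates allow), and it was 0.41 without replicate 2. In the whole replicate lists 573 of the 592 peaks had a match, and 7, 10 and 3 peaks had none in replicates 1, 2 and 3. The median ratio of a peak's worst to its best replicate rank was 1.67.

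**Figure D1:**
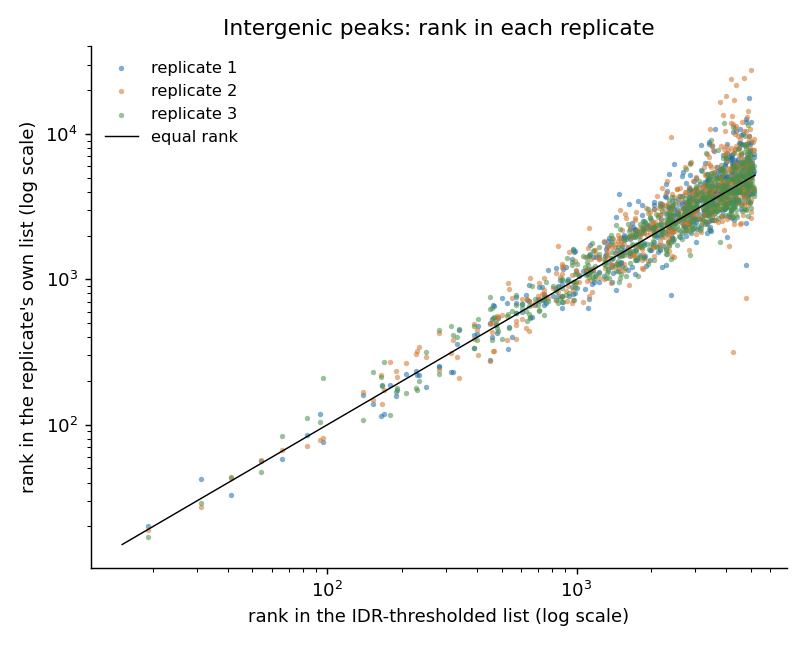
Rank of each intergenic peak in the IDR-thresholded list (x, log scale) against its rank in each replicate's own list (y, log scale), 1 point per peak and replicate, with the line of equal rank. The strongest peaks lie close to the line in all 3 replicates, and the spread widens past rank 1000.

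The 15 strongest intergenic peaks lay beside genes of varied function. The first, of rank 19 (chr2R:13035128-13035558), lay between Su(z)2, a relative of the Polycomb group gene Psc, 27370 bp away, and CG13323, 9414 bp away. It was ranked 20, 19 and 17 in replicates 1, 2 and 3. The next, of rank 31 (chr3R:16222297-16222695), lay 3159 bp upstream of tara, whose product works with the Trithorax group and the cell cycle, and ranked 42, 27 and 29. The peak of rank 41 lay 12459 bp upstream of chinmo, which encodes a BTB zinc finger protein that times neuronal fates, and ranked 33, 43 and 44. All 3 peaks thus stood among the 50 strongest entries of every replicate.

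The peak of rank 54 lay between the 3′ ends of blw, an ATP synthase subunit gene, and CycB, the cyclin B gene, 781 and 560 bp away, with ranks 56, 57 and 47. The peak of rank 66 lay 548 bp upstream of sp3 and 7566 bp beyond the 3′ end of C15, a homeobox gene. Ranks 83 and 93 lay upstream of CG3149 and AdamTS-B, and upstream of chinmo again. Rank 96 lay 641 bp upstream of CG14762 and 16887 bp upstream of Optix, a homeobox gene of eye development, and was less even, with ranks 76, 81 and 209. The rest of the 15 strongest lay between mtSSB and tara (rank 139), Glut3 and abd-A (153), dati and lgs (164), Atg13 and stck (165), CG9452 and Cpr76Ba (168), COX7AL2 and CG31668 (179), and CG13896 and hng3 (189). Among their flanking genes are abd-A, a Hox gene of the abdomen, lgs, which encodes a coactivator of Wingless signalling, stck, which encodes an adaptor of integrin attachment, and Cpr76Ba, a cuticle protein gene. The lowest replicate rank of any of the 15 was 271, for the peak of rank 179 in replicate 2. For 8 of the 15 the nearest start site was that of a non-coding gene, as for 196 of all 592 peaks (33.1%).

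Most intergenic peaks stood within a few kilobases of a gene. The median distance to the nearer flanking gene was 2453.5 bp (quartiles 774.5 and 7094 bp), and it was 2204, 2337 and 2475 bp among the top entries of replicates 1, 2 and 3. The farther flanking gene lay a median 11139 bp away. The nearest start site of any gene was a median 2733 bp away and at most 37707 bp. At the threshold itself, 37 intergenic summits lay more than 500 and up to 600 bp from a start site and 41 more than 400 and up to 500 bp. The closest peak kept lay at 504 bp and the farthest left out at 499 bp.

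Per length of sequence, intergenic peaks grew rarer with distance from start sites. Intergenic sequence more than 500 bp from a start site covered 36.3 Mb, 27.1% of the chromosome arms, and held 16.3 peaks per Mb. Introns at this distance held 29.9 peaks per Mb, and the replicates' own top entries gave 15.9 ± 1.02 and 29.7 ± 0.683 per Mb (SD, n = 3) for intergenic sequence and introns. From 500 to 1000 bp away there were 42.8 intergenic peaks per Mb (exact 95% Poisson interval 35.5 to 51.2), and the replicates gave 43.2 ± 2.15. From 2000 to 5000 bp there were 20.5 per Mb and from 10000 to 20000 bp 10.02. Past 20000 bp 10 peaks stood in 7.74 Mb, 1.29 per Mb (0.619 to 2.37), and the replicates gave 1.08 ± 0.415. Annotated transposable elements covered 4.12% of the nearest class and 17.0% of the farthest, and outside them the densities were 44.3 and 1.56 per Mb. How much of the far sequence allows reads to be placed uniquely was not tested. Of the 592 summits 1 lay in an annotated transposable element, while such elements cover 10.9% of the sequence.

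**Figure D2:**
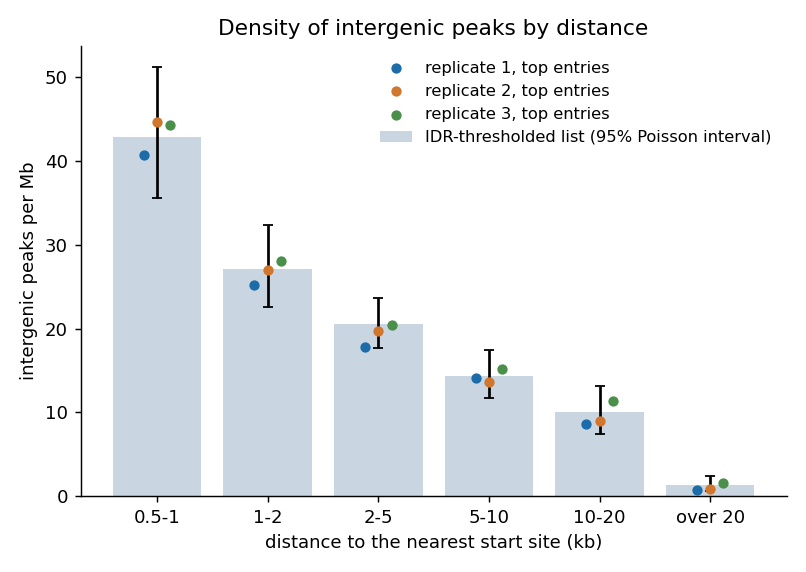
Intergenic peaks per Mb of intergenic sequence (y) by distance to the nearest start site in kb (x): bars give the IDR-thresholded peaks with exact 95% Poisson intervals, points each replicate's top entries. Bars fall from 42.8 to 1.29 per Mb, and the 3 replicates follow the same order of classes from the nearest to the farthest.

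More than 10000 bp from both flanking genes stood 98 peaks (16.6%). The 5 peaks farthest from a protein-coding gene lay between vvl and Prat2, between grim and rpr (2 peaks) and between CG6414 and CG43689 (2 peaks). The vvl gene encodes a POU domain factor and Prat2 an enzyme of purine synthesis, and their peak lay 66414 and 50644 bp away, with ranks 3804, 3509 and 5754 in replicates 1, 2 and 3. The genes grim and rpr encode activators of apoptosis. Their peak of rank 3762 lay 44444 and 48674 bp away, and its ranks of 5596, 16566 and 1809 differed widely between replicates. Their peak of rank 4278 ranked 5347, 4874 and 4153. The peaks between CG6414 and CG43689, 39677 and 39056 bp from the nearer gene, ranked 2831 and 2583. The 5 peaks ranked from 2583 to 4278.

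Divergent gene pairs held more intergenic peaks per length than convergent pairs. Between genes that point away from each other stood 190 peaks (32.1%) in 24.7% of the intergenic sequence, 22.4 per Mb. Between convergent genes stood 103 peaks (17.4%) in 23.2% of the sequence, 12.9 per Mb, and between genes in tandem 299 peaks (50.5%) in 52.1%. The replicates' own top entries gave 32.0% ± 1.33 divergent and 18.1% ± 0.936 convergent (SD, n = 3). These densities were not matched for distance to start sites, with which peaks per Mb fell. A difference by orientation apart from that distance was not tested. The nearer flanking gene turned its 5′ end to the peak in 317 cases (53.5%; 53.5% ± 1.49 in the replicates), and 49.7% of the sequence was nearest to a 5′ end.

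By chromosome arm, the peaks numbered 164 on 3L, 141 on 2L, 115 on 3R, 92 on 2R, 74 on X and 6 on 4. Per Mb of intergenic sequence, 2L held 21.0 (17.7 to 24.8, exact Poisson) and 2R 12.4 (9.96 to 15.2). Outside annotated transposable elements the densities on 2L and 2R were 23.1 and 14.6 per Mb. The exact intervals given here and above treat peaks as independent and may be too narrow. Of the 592 peaks 285 lay between the same flanking genes as another. The X held 12.5% of the intergenic peaks, 12.1% ± 0.123 in the replicates (SD, n = 3), and 14.5% of the intergenic sequence. It held 24.3% of the far intronic peaks, but its share of the intronic sequence was not measured.

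The peaks fell into 412 of 5520 intervals between neighbouring protein-coding genes with such sequence (7.46%). Intervals with a peak had a median length of 10650.5 bp, against 1433 bp for those without. Of intervals up to 2000 bp long 1.42% held a peak, of those from 20000 to 50000 bp 26.6%, and of the 113 longer ones 24.8%. A single peak stood in 307 intervals, and 285 peaks (48.1%) shared their interval with another. In 17 intervals there were 4 or more, 91 peaks in all. Another intergenic peak within 1000 bp was found for 68 peaks, and 1 peak had the same start and end as another intergenic peak but its own summit. Neighbouring peaks in an interval can share sequence and so are not independent sites.

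The interval between RFeSP, which encodes the Rieske protein of the respiratory chain, and chinmo held 9 intergenic peaks in 37097 bp, and the divergent pair turned both 5′ ends to them. Beside ranks 41 and 93, the peaks upstream of chinmo had ranks 448, 603, 1116, 1509, 2376, 2424 and 3927, from 1586 to 35237 bp from the gene. The peak of rank 448, 7843 bp upstream, ranked 501, 274 and 628 in replicates 1, 2 and 3. The peak of rank 603 ranked 679, 533 and 673. Of the 9, only rank 3927 fell outside the top 5164 of 2 replicates, with ranks 5167, 2171 and 11809. In the pooled list of 30000 entries the interval held 23 entries.

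**Figure D3:**
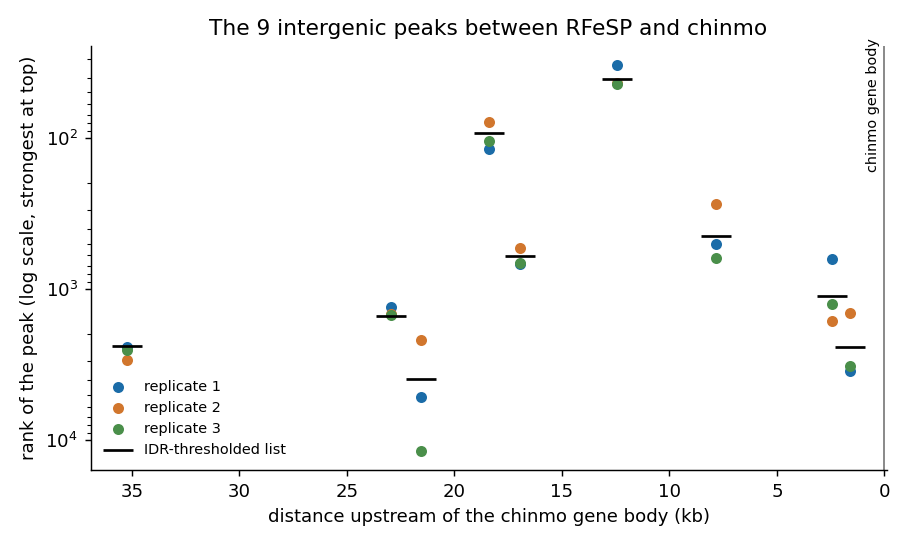
Rank (y, log scale, strongest at the top) of the 9 intergenic peaks between RFeSP and chinmo by distance upstream of the chinmo gene body in kb (x), as dots for the 3 replicates and as bars for the IDR-thresholded list. The strongest peak lies 12459 bp upstream, and 3 more of the 9 rank in the first 1000 of every replicate.

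An equal number of peaks, 9, lay between CG44362 and CG7560 on 3L in 27292 bp, with ranks from 825 to 3940. Some of them were neighbours whose summits shared a replicate entry: ranks 825 and 974 were both matched to rank 726 of replicate 3, and rank 2216 had no entry of its own in replicates 1 and 3. Between hng3 and CG13898 stood 7 peaks, the strongest of rank 473. Intervals with 6 peaks lay between scyl and Dyro, CG6168 and CG6163, CG7320 and CheA75a, and NijA and CG43245. NijA encodes a ninjurin, a cell surface protein, and its 75047 bp interval held a peak 38428 and 36620 bp from the flanking genes. The interval between Doc2 and Doc1 held 5 peaks. For the tenth place 8 intervals tied with 4 peaks each, those of Hacd1 and Rh5, NimC3 and hll, Pgant2 and CG2772, mtSSB and tara, Ids and sty, CG13898 and Sf3b3, CG13896 and hng3, and hth and CG6465. The 4 peaks beside tara ranked 31, 139, 3373 and 3861, and the 2 strongest lay 3159 and 1125 bp upstream of it.

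Of 13945 protein-coding genes 764 (5.48%) flanked an intergenic peak on either side, and 5.34% ± 0.305 did in the replicates' own top entries (SD, n = 3). The share rose with the length of intergenic sequence beside the gene. Of 6106 genes with none, 0.0491% flanked a peak. Of the genes with up to 2000 bp 2.34% did, with 2000 to 5000 bp 12.2% and with 5000 to 10000 bp 15.6%. With 10000 to 20000 bp 19.1% did, with 20000 to 50000 bp 28.0% and with more 33.9%. The gene lists were therefore set beside this share and beside their own adjacent sequence, and no test of a list was made. Some genes are in more than 1 list, so the shares of different lists are not separate results. The slp1 and slp2 genes, with their peak of rank 229, count in the temporal series, pair-rule and forkhead lists. The ems and oc genes count in the neuroblast and the gap and maternal lists.

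Genes of developmental transcription factors flanked intergenic peaks often. Of 27 forkhead, T-box, GATA and Sox genes 16 did (59.3%; 55.6% ± 3.70 in the replicates, SD, n = 3), with a median of 8930 bp of adjacent sequence. The forkhead genes slp1 and slp2, which act in segmentation and in the temporal series of neuroblasts, shared the peak of rank 229, ranked 221, 320 and 172 in replicates 1, 2 and 3. It lay 5432 bp beyond slp1 and 4309 bp upstream of slp2. The Sox genes Sox21a and Sox21b flanked the peak of rank 503, ranked 746, 569 and 389. The T-box genes Doc1 and Doc2, of heart and amnioserosa development, stood beside 6 peaks each, the strongest of rank 680 with replicate ranks 662, 691 and 731. The 16 genes included both stem cell Sox genes SoxN and D, whose best peaks ranked 1314 and 2891, and the GATA gene srp with rank 3807.

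Of 43 other homeodomain genes 18 (41.9%) flanked a peak, led by C15 (66), Optix (96) and zfh2 (531), with the best rank in parentheses. Of 10 pair-rule genes 5 did, slp1, slp2, hry, odd and ftz, and 46.7% ± 11.5 in the replicates, with 3 left without replicate 3. Of 15 segment polarity genes 7 did, led by ptc, the Hedgehog receptor (706), and the T-box genes mid (771) and H15 (1587), with drm (1168) between them. The wg gene, for the Wingless ligand, and its neighbour Wnt4 shared the peak of rank 1833, 25558 and 4430 bp away, with replicate ranks of 2779, 1609 and 1741. Of 15 gap and maternal genes 5 did, led by ems (1486), oc (1772) and kni (3711), but 3 without replicate 3 and 2 when only peaks within 10000 bp of the gene were counted. Of 28 genes for signalling ligands 10 did, led by vn (570), which encodes a neuregulin-like ligand of the EGF receptor, wg and Wnt4, but only 4 had a peak within 10000 bp. Among the others, upd1 and upd3, ligands of the JAK/STAT pathway, shared rank 1860, and dpp, the BMP ligand, had rank 2201, 1735 bp upstream. Of 8 Hox genes 3 did, abd-A (153) and the neighbours Dfd and Scr (4415), but 1 in the top entries of replicate 2 (12.5%) and 1 without replicate 1 or without replicate 3. Median adjacent sequence was 15593 bp for the other homeodomain, 26678 bp for the pair-rule and 16775 bp for the segment polarity genes. It was 18402 bp for gap and maternal, 12741.5 bp for ligand and 11818.5 bp for Hox genes. Of all genes with 10000 to 20000 bp 19.1% flanked a peak, and with 20000 to 50000 bp 28.0%.

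Of 20 neuroblast transcription factor genes 9 flanked a peak, none of rank under 1000, with a median of 27911 bp of adjacent sequence. They were led by SoxN (1314), ems (1486) and oc (1772). The gene pros, whose product ends stem cell division, had 1 peak of rank 2858 at 59252 bp, with no match in replicate 1. Of 19 temporal series genes 7 did, with chinmo and the slp genes first and Imp, hth, ey and danr after them. The peak of Imp, an RNA-binding protein gene, lay 8308 bp upstream and ranked 1298, 1754 and 1651. None of the 11 proneural genes, da and emc flanked a peak, and their median adjacent sequence was 0.0 bp. Of 18 Notch pathway genes numb (3587), fng (4238) and Ser (4693) did, and 1 without replicate 1, without replicate 3 or within 10000 bp. Of the 7 bHLH genes of the E(spl) complex only E(spl)mbeta-HLH did. It shared the peak of rank 537 with E(spl)malpha-BFM of the Bearded family. This peak ranked 468, 854 and 466 in replicates 1, 2 and 3 and lay 3064 and 1806 bp from the genes. Tom and BobA of that family shared rank 4151, which had no match in replicate 2. The hry gene, the Hes gene known as hairy, stood beside 5 peaks, the strongest of rank 878 at 21623 bp with replicate ranks 638, 1224 and 875. Of 13 sex determination genes 1 did, upd1, and none within 10000 bp. Median adjacent sequence was 13970 bp for temporal series, 72.5 bp for Notch pathway and 79 bp for sex determination genes. It was 2297 bp for the E(spl) complex, 4566 bp for the Bearded family and 3940 bp for the list of other Hes genes with hry. Of all genes with 2000 to 5000 bp 12.2% flanked a peak.

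Lists of other functions mostly gave lower shares. Of 54 neuronal surface genes of the dpr, DIP, beat and side families 4 did (7.41%), although their median adjacent sequence was 13825 bp. The 4 were dpr17 (312), dpr20 (1097), DIP-delta (2719) and side-IV (3818). Of 17 genes of differentiated neurons 4 did, ple, for tyrosine hydroxylase (1083), futsch (1722), CadN (2865) and VGlut (4824). Markers of other cell types gave 1 of 10 glial genes, nrv2 (1998), and 2 of 15 mesoderm and muscle genes, bin (1169) and Act57B (3189). The share of the latter was uneven, 13.3%, 26.7% and 6.67% in replicates 1, 2 and 3, and 1 gene was left without replicate 1 or without replicate 2. Of 26 cell cycle genes CycB (54) and stg (3812) did, of 92 ribosomal protein genes 5 (5.43%), of 179 chemoreceptor genes 8 (4.47%; 4 genes without replicate 1 or without replicate 3) and of 120 cuticle protein genes 5 (4.17%). Their strongest were RpL17 (1796), RpS15Aa (1921) and RpS23 (2521), then Gr89a (1553), Gr93a (1571) and Or56a (1954), and then Cpr76Ba (168), with Cpr65Eb and Cpr65Ec at 1355. None of 14 heat shock, 12 germ line and 17 insulator and architecture factor genes did, though 5.88% of the last list did in replicate 3. Their median adjacent sequence was only 90, 11 and 0.0 bp. It was 91 bp for cell cycle, 51 bp for ribosomal protein, 578 bp for chemoreceptor and 1134.5 bp for cuticle protein genes. Differentiated neuron, glial and mesoderm and muscle genes had 4331, 1225.5 and 5239 bp. Of all genes with no such sequence 0.0491% flanked a peak, of those with up to 2000 bp 2.34% and with 2000 to 5000 bp 12.2%.

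**Figure D4:**
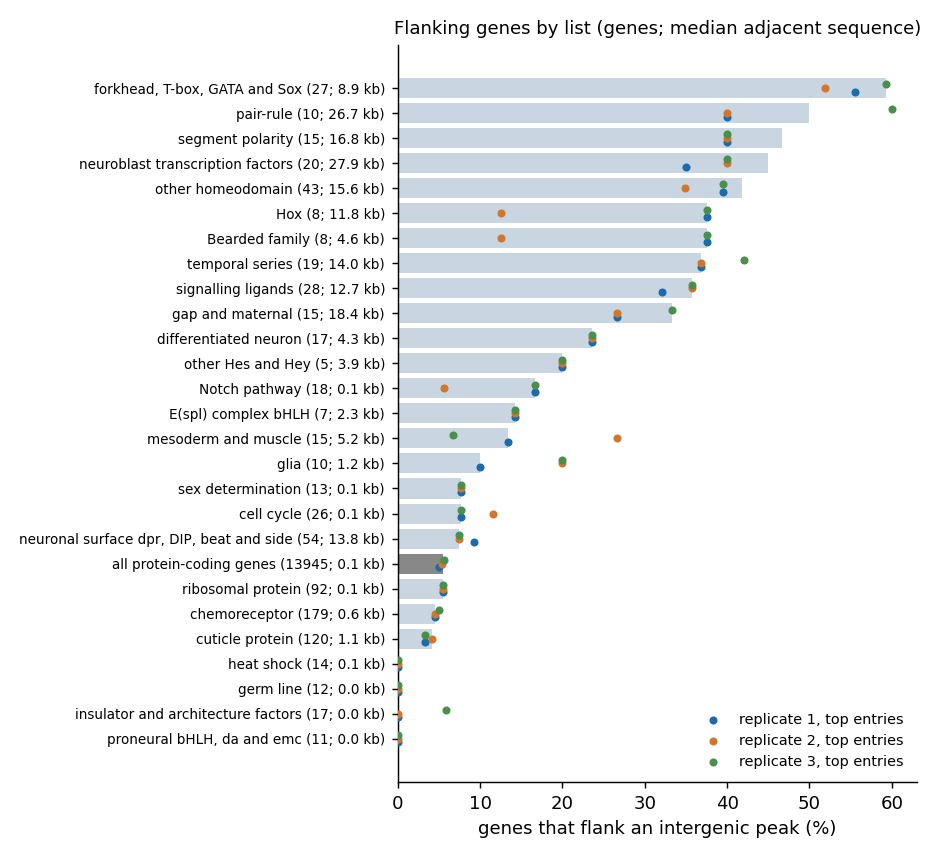
Share of genes that flank an intergenic peak (x, %) for each list and for all protein-coding genes (dark bar), with each replicate's top entries as dots. The number of genes and the median adjacent intergenic sequence in kb stand beside each name, and the forkhead, T-box, GATA and Sox list is highest at 59.3%, with all genes at 5.48%.

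The dpn gene itself flanked no intergenic peak. Among the entries at or near this gene, the peak of rank 2098 (chr2R:8237248-8237663) was a promoter peak, 185 bp from a start site. Whether that start site belongs to dpn was not tested. A weaker entry of the pooled list, of rank 9907, lay outside gene bodies 1097 bp from a start site and below the IDR threshold.

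Intergenic summits were richer in A and T than their flanks, as were those of the far intronic and promoter peaks. Within 50 bp of the summit 63.9% of bases were A or T, against 58.2% in windows of equal length 400 bp away. The shares were 65.6% and 58.0% for far intronic and 61.0% and 55.5% for promoter peaks. Each of the 2080 hexamers, both strands merged, was compared between a peak's summit and its own flanks by a two-sided exact binomial test over the peaks that held it at only 1 of the places, with Benjamini-Hochberg adjustment over all hexamers. The test runs over peaks of the pooled replicates and does not measure the spread between replicates. At an adjusted p under 0.05, 43 hexamers (2.07%) were commoner at the summit and 32 (1.54%) rarer. Of the 43 commoner, 36 had 4 or more A or T, and of the 32 rarer, 27 had 4 or more C or G and 0 had 4 or more A or T. In the 3 replicates' own top entries all 43 had a ratio above 1 and all 32 a ratio below 1 in every replicate, which the choice of these words on largely the same peaks nearly fixed. With peaks kept only when matched in both other replicates, 407 to 438 peaks remained and the counts fell to 13, 8 and 4 commoner and 4, 3 and 1 rarer hexamers without replicates 1, 2 and 3.

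The smallest p was that of AAGTAT, found at 11.5% of the intergenic summits and 3.55% of their flanks, a ratio of 3.29 (exact binomial test, adjusted p = 0.000896). In the replicates the ratio was 2.69 ± 0.174 (SD, n = 3). Without replicate 3 its adjusted p was 0.0515 by this exact test, at a ratio of 3.07. AGTGTA stood at 9.97% against 3.21% (ratio 3.42), TAGTAA at 8.61% against 2.36%, AGAGAA and GTAATA at 9.63% against 3.04% each, AAAGTA at 15.2% against 6.76%, TTAAAA at 25.7% against 15.4%, ACTGAG at 6.59% against 1.52% and TTTAAA at 17.4% against 8.78%. Of the 10 hexamers with the smallest p in the other direction, CACCCA was found at 1.18% of summits and 5.57% of flanks, a ratio of 0.20, and ATGGGG at 1.18% and 5.41%. CACCCC and CCCTCG were each found at 0.676% of summits and 4.22% of flanks, and GCCTCA at 0.338% and 3.21%. The other 5 were AACTCG (1.35% and 5.57%), CGCCTC (0.507% and 3.72%), AGCCAG (1.69% and 5.91%), CCCCTC (1.35% and 5.41%) and CGTTGC (1.18% and 4.90%).

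None of the words that Hes proteins are known to bind passed the test at these summits. CACGTG was found in 5 peaks (0.845%) at the summit and in 1.52% of their flanks, and its ratio of 0.579 did not pass the exact test (adjusted p = 0.721). It stood at 0.695% of far intronic and 0.873% of promoter summits. CACGCG stood at 1.01% against 1.69% and CACGAG at 1.18% against 2.20%. Of the other N-box words, CACAAG stood at 4.05% against 3.55%, CACCAG at 2.70% against 3.55% and CACTAG at 2.53% against 0.507%. The last had a ratio of 4.43 (exact binomial test, adjusted p = 0.095) and 3.52 ± 0.898 in the replicates (SD, n = 3), and it stood at 2.34% of far intronic and 3.84% of promoter summits. CAGGTA, the core of the word bound by the early activator Zelda, stood at 1.69% against 2.20%, GAGAGA, bound by the GAGA factor, at 4.90% against 4.22%, TGGGAA, bound by Suppressor of Hairless, at 6.25% against 5.24%, and GGTCAC at 1.18% against 2.20%, and none passed the test.

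Against the far intronic summits no hexamer passed the test, 0 of 2080 (0.0%) in either direction by Fisher's exact test, with 141 at an unadjusted p under 0.05 and a smallest adjusted p of 0.162. ACACTG stood at 7.21% of far intronic summits against 9.63% of the intergenic ones. Against promoter summits, a comparison added after the data were seen, 34 hexamers (1.63%) were commoner and 51 (2.45%) rarer at the intergenic summits. TATCGA, part of the word bound by the factors BEAF-32 and DREF, stood at 3.04% of intergenic and 15.7% of promoter summits (odds ratio 0.173, Fisher's exact test, adjusted p = 2.2e-17), and at 3.04% of the intergenic peaks' flanks. ATCGAT stood at 1.86% against 12.7% and GGTCAC, part of a core promoter word, at 1.18% against 5.34%. CATACA was the leading commoner word at 9.63% against 4.54% (odds ratio 2.25, Fisher's exact test, adjusted p = 0.000537), and 11 of the 43 words commoner than in the flanks were also commoner here. Among them were AAGTAT at 11.5% against 6.91%, AAAGTA at 15.2% against 10.1%, AGAGAA at 9.63% against 4.78%, AGTGTA at 9.97% against 5.20% and ACTGAG at 6.59% against 2.90%. Of the 32 rarer words 5 were also rarer here.

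ACACTG was commoner at the intergenic summits, in 57 peaks (9.63%) against 3.55% of flanks, a ratio of 2.85 (exact binomial test, adjusted p = 0.00639). In the replicates the ratio was 2.32 ± 0.190 (SD, n = 3). Its adjusted p by this exact test was 0.102, 0.183 and 0.17 without replicates 1, 2 and 3, at ratios of 2.33, 2.15 and 2.27, and 0.266 with 1 peak for each interval. Within 100 bp of the summit it stood in 121 peaks (20.4%; 19.2% ± 0.304 in the replicates, SD, n = 3). Of 180402 windows of 201 bp tiled over the same kind of intergenic sequence 7.11% held it, and of the far intronic and promoter peaks 18.3% and 21.4%.

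The bases around its 136 matches differed from those at promoters. A T preceded the hexamer in 55.1% of the matches. Counted from 1 at its first base, A stood at positions 11, 12 and 13 in 68.4%, 72.1% and 74.3% of them. At the 690 matches of the promoter peaks A stood there in 35.4%, 36.1% and 36.5%. ACACTG followed after 4 bases by AAA, a form chosen after these shares were seen, was found in 65 intergenic peaks (10.98%; 8.83% ± 0.248 in the replicates, SD, n = 3), 8.34% of far intronic and 2.37% of promoter peaks. It stood in 1.01% of the intergenic peaks' flank windows and in 0.780% of the tiled windows. Among pooled intergenic entries below the IDR threshold 3.61% held it. By rank, it was found in 10.8%, 8.78%, 7.43% and 16.9% of the 4 groups of 148 intergenic peaks by rank, from strongest to weakest. By arm, it was found in 20.3% of the peaks on X, 12.1% on 2L, 11.6% on 3L, 6.96% on 3R, 6.52% on 2R and none of the 6 on 4.

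The sequence had an orientation. Of its 68 matches within 100 bp of an intergenic summit 63 (92.6%) had their AAA end towards the summit and 5 away from it. In the top intergenic entries of replicates 1, 2 and 3 the share was 89.8%, 86.8% and 96.8%. It was 93.6% of 141 matches at far intronic peaks and 78.6% of 70 at promoter peaks. For ACACTG alone it was 77.9% at intergenic and 51.2% at promoter peaks. Within 150 bp, 10 intergenic peaks held matches on both sides that faced each other, 142 to 175 bp apart, as in the sequence shown for rank 83. For ACACTG alone, matches on the forward strand were most frequent 50 to 150 bp left of the summit. Those on the reverse strand were most frequent 50 to 100 bp right of it. The orientation was noticed in these data, and matching letters do not show which protein, if any, binds there.

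**Figure D5:**
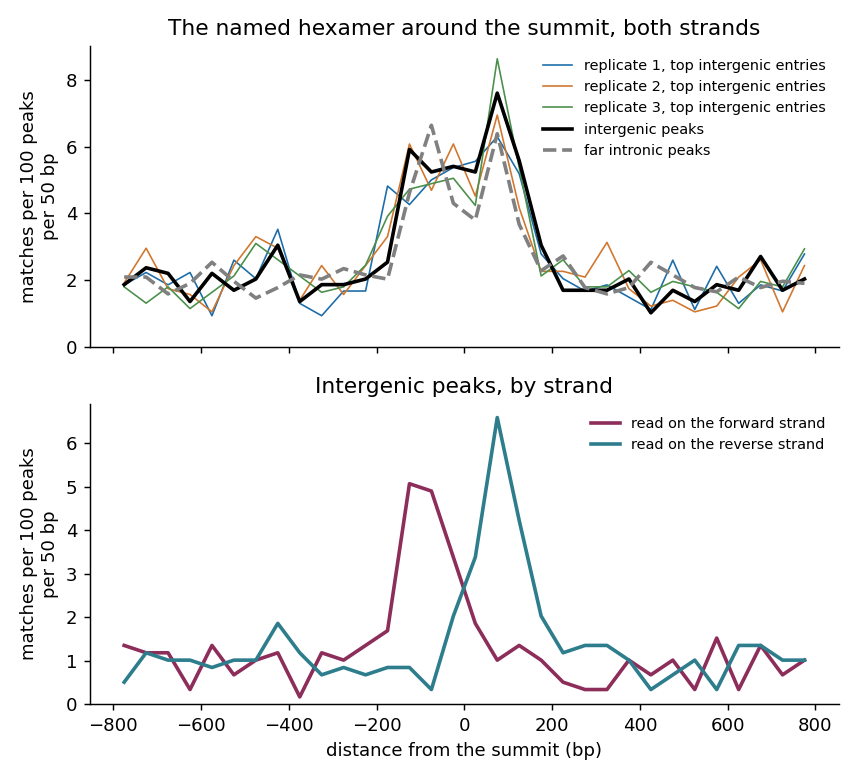
Matches to ACACTG per 100 peaks in bins of 50 bp (y) by distance from the summit in bp (x): the upper panel shows intergenic peaks, far intronic peaks and each replicate's own top intergenic entries, the lower panel the intergenic peaks by strand. Matches rise within about 150 bp of the summit in every set, forward-strand matches to its left and reverse-strand matches to its right.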

How the data were processed

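ChIP-seq of Deadpan-eGFP was represented by the authors' deposited peak lists on dm6 for 3 replicates, for the pooled replicates (30000 entries each) and after IDR thresholding (5164, the top of the pooled list). Lists with coordinates on dm3 were not used here. Per the deposited lists of files, calling was done for every replicate and for the pool, with a control alignment. Which aligner and caller were used is not given in the sources used here. Deposited column 7 holds the caller's signal and served only to order entries inside a list. Deposited column 10, of another unit, is the summit's offset from the start in bp. Without read counts the depth is unknown.

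Gene bodies and start sites came from the Ensembl annotation of release 6 (release 115), without transposable elements (where 2 genes end at the same base, 1 was counted as flanking), and sequence from the NCBI RefSeq genome. Positions count from 1. Matched peaks have summits within 150 bp. Replicates' top entries are their 5164 strongest. For hexamers, 50 bp on either side of the summit, without the summit base, were compared with windows 400 bp away. A ratio divides the number of peaks holding a hexamer at the summit alone by the number holding it in the flanks alone, after adding 0.5 to each. Adjustment was by Benjamini-Hochberg with a threshold of 0.05. The hexamer tests were tested on simulated data. Gene lists (26, of which 360 symbols were entered, 347 matched directly, 11 under a current symbol and 2 not at all, the rest by symbol pattern) and the members were chosen with earlier results of these data known. Named genes flank the 15 strongest peaks, the 10 fullest intervals or the 5 most isolated peaks, or are up to 3 per list by the rank of their strongest peak, with dpn; further genes of short lists were named after their values were seen. Among the fullest intervals, 1 is not reported here. Named hexamers were 12 chosen words and the 10 with the smallest p in each direction. Alternatives changed the start site distance, annotation, matching distance, windows and peak set, and left out each replicate. Python 3 with NumPy, pandas, SciPy and Matplotlib was used.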

Additional observations from a re-analysis of the deposited data

How the results depend on the processing

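No paired analysis was possible because all 3 samples belong to 1 group. The 592 intergenic peaks were the same 592 with the RefSeq annotation, and their number fell to 347 with a start site distance of 2000 bp and to 407 to 438 when 1 replicate was left out. The share matched in all 3 replicates was 47.8% with matching within 50 bp and 96.8% against the whole replicate lists. The difference in recovery from far intronic peaks ran from -1.70 to 0.41 percentage points without 1 replicate, the positive value being that without replicate 2, and the cause was not tested. The median distance to the nearer gene was 1962 bp for the stronger peaks (rank up to the median), and 2112 to 2387.5 bp without 1 replicate. Flanking genes numbered 435 for the stronger peaks and 447 when only the nearer side was counted. Without 1 replicate the flanking genes of the Hox, Notch pathway and Bearded family lists fell from 3 to 1, those of the chemoreceptor list from 8 to 4, of the gap and maternal and pair-rule lists from 5 to 3 and of the mesoderm and muscle list from 2 to 1. Counting only peaks within 10000 bp of the gene left 4 of 10 genes for signalling ligands, 2 of 5 for gap and maternal, 1 of 3 for Notch pathway and for Bearded family and 0 of 1 for sex determination. Counting only the nearer side left 4 of 7 for segment polarity, 2 of 5 for gap and maternal, 1 of 4 for differentiated neuron, 3 of 8 for chemoreceptor, 3 of 5 for cuticle protein, 1 of 2 for mesoderm and muscle, and 0 of 1 for glia, sex determination and the E(spl) complex. Hexamers commoner at the summit against their flanks numbered 115 with windows of 100 bp, 14 with flanks 800 bp away, 4 with 1 peak for each interval, 2 for the stronger peaks, 0 for the 77 peaks with no soft-masked base (repeats) in the summit window or in either flank window and 4 to 13 without 1 replicate. Rarer ones numbered 146, 8, 0, 3, 0 and 1 to 4. The words were partly different ones. With flanks 800 bp away 11 of the 14 commoner and 3 of the 8 rarer words were among the main 43 and 32. With windows of 100 bp 35 of the 115 and 23 of the 146 were. The sets with fewer calls, flanks 800 bp away apart, hold fewer peaks by construction, and whether this accounts for the lower counts was not tested. Against promoter peaks the counts were 34 and 51, against 0 and 0 for far intronic peaks. With lists that carry no read counts, the precision of a single peak's rank could be judged only from the 3 replicates.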
